A study of Mus musculus with 12 samples.

Results

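Irradiated KPC cells were compared with irradiated MB49 cells gene by gene, to see how the lines stood apart in transcript level after the same dose. The comparison takes 6 of the 12 RNA-seq libraries of the series, 3 of each line, chosen by their sample names alone. KPC is a mouse pancreatic ductal adenocarcinoma line and MB49 a mouse bladder cancer line, and the genotype of both is recorded as WT. The irradiated KPC and irradiated MB49 cells had received 8 Gy and were collected after 48 h of culture. The other 6 libraries are 3 untreated KPC and 3 untreated MB49 cultures, whose time in culture is not given. All cells grew in DMEM with fetal bovine serum. The design text also names senescent cells, but the labels of single libraries give only the line and control or 8 Gy. Each group is a single line, so a difference between groups is a difference between these 2 lines and not between bladder and pancreatic tumours in general.

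Ionizing radiation breaks DNA, which stabilizes the transcription factor p53, holds cells before division, and can leave DNA fragments in the cytosol. Cytosolic DNA and RNA are read by sensors that lead to interferon signalling through JAK kinases and STAT proteins, which induces antiviral, antigen presentation and chemokine genes. How strongly a tumour line carries these genes, which growth factors it secretes and which matrix it lays down also depend on the tissue it came from and on the changes it picked up as a tumour.

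The 6 irradiated libraries held 19006015 to 26337950 counts, with 12201 to 13024 genes at 10 counts or more. Levels are given as CPM, edgeR's count values set relative to the scaled library size, and differences as the log2 ratio of KPC over MB49 with its standard error. Calls are from edgeR's quasi-likelihood test over 14362 genes, at an adjusted p (Benjamini-Hochberg) below 0.05. The labels do not tell whether a group's 3 libraries came from separate cultures. The p-values therefore measure the spread between libraries of a group, pooled over all 4 groups, untreated ones included. That spread may be technical. Across genes, log2 levels correlated at r of 0.988 to 0.997 within a group and at 0.843 to 0.86 between irradiated KPC and irradiated MB49 libraries. An MB49 control library, replicate 3, stood apart. There the genes otherwise limited to irradiated KPC cells summed to 79.9 CPM, against 21.9 and 19.5 CPM in the other MB49 controls. That library also had 3.73 CPM of the epithelial gene Epcam and 3.21 CPM of the X inactivation transcript Xist, against 0 in the other MB49 controls. No irradiated library is involved, but the fit shares 1 estimate of spread per gene over all 12 libraries. That control library therefore also enters the standard errors and adjusted p after 8 Gy. Without it 4649 genes were called higher and 5061 lower after 8 Gy, and the adjusted p of Acta2 was 2.05e-14 instead of 0.00376. List counts and some other results that use the MB49 controls are also given without it. Values not marked so include MB49 control replicate 3. KPC control replicate 1 also stood out, with 5.11% of its counts on an 18S row, against 0.547% and 0.313% in the other KPC controls. Without KPC control replicate 1, 4930 genes were called higher and 4600 lower after 8 Gy, against 4452 and 4793 with all libraries. With the 18S row removed instead, 4449 were higher and 4791 lower.

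After 8 Gy the lines differed over most of the transcriptome. Of the 14362 genes, 9245 were called, 64.4%, of which 4452 were higher in irradiated KPC cells (31% of those tested) and 4793 lower (33.4%). By at least 4-fold, 1232 were higher (8.58%) and 1459 lower (10.2%). The first principal component of the 6 libraries, which separated the lines, took 94.8% of their variance. Counts of members on a gene list are therefore read against these shares, and a share of called members near them says nothing particular about the list. In these bulk libraries fewer cells of a kind and less RNA per cell cannot be told apart.

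**Figure D1:**
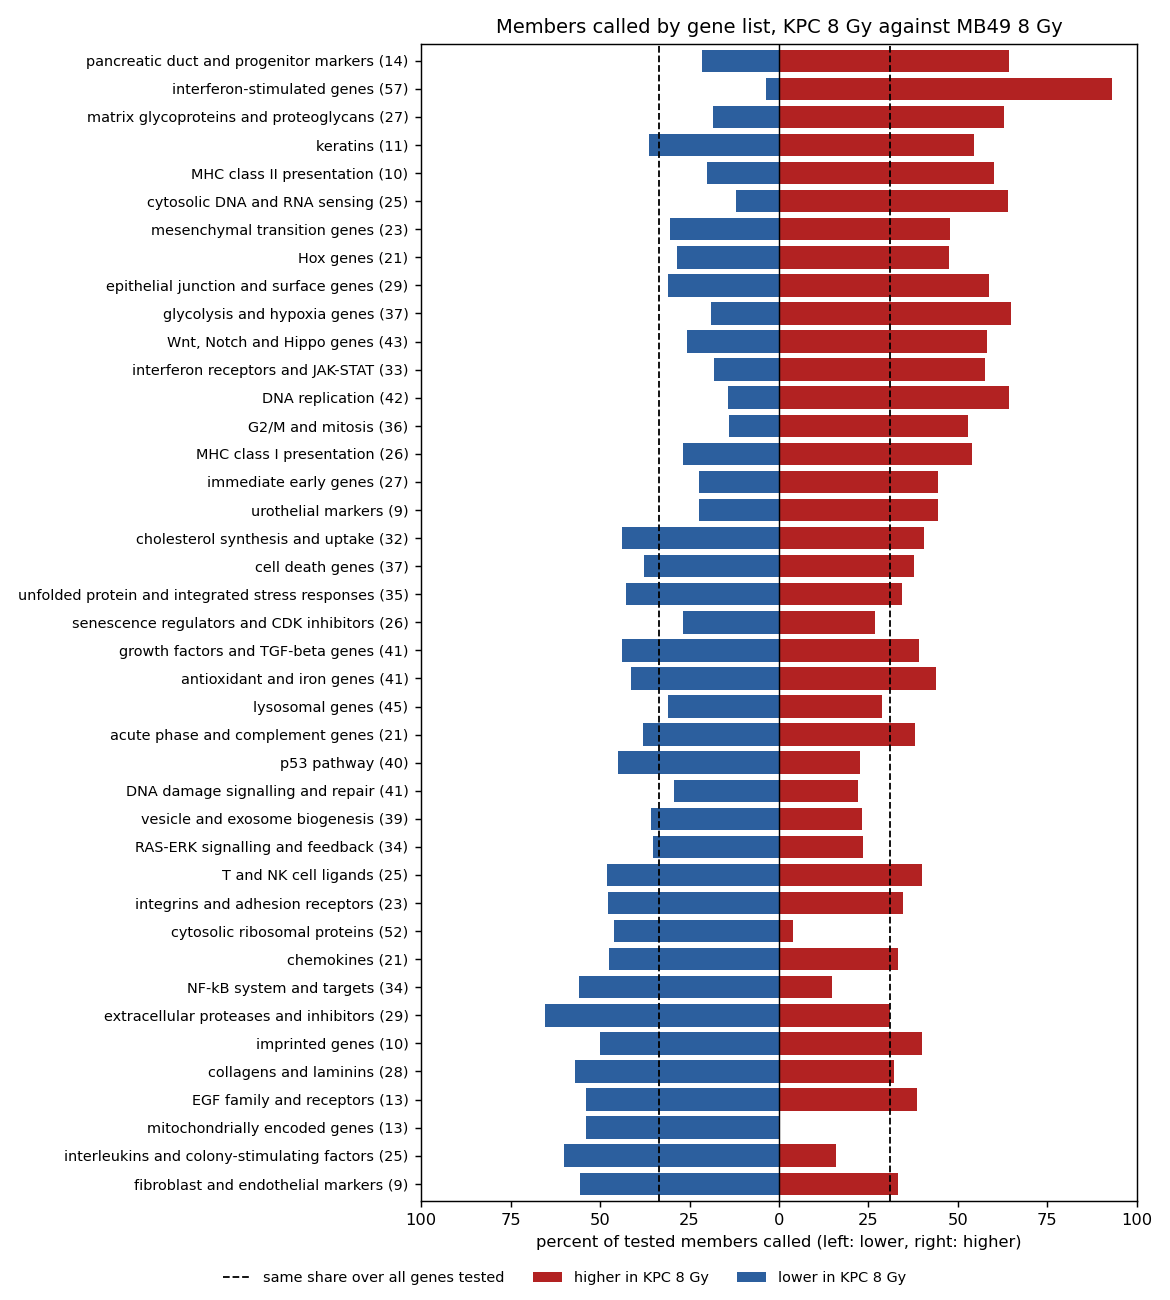
Share of the tested members of each gene list that were called higher (bars to the right) or lower (bars to the left) in irradiated KPC against irradiated MB49 cells, in percent, with the number of tested members in brackets and the lists of at least 9 tested members sorted by median difference. Dashed lines mark the shares over all genes, 31% higher and 33.4% lower. The interferon-stimulated genes reach furthest to the right, with 53 of 57 members higher.

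The labelled origins showed unevenly. Of 14 tested markers of pancreatic duct and its progenitors 9 were higher in irradiated KPC cells and 3 lower, with a median difference of 2.88, or 1.33 by DESeq2. Krt19, the keratin of ductal epithelium, stood at 411, 396 and 440.5 CPM in irradiated KPC cells, against 3.40, 3.23 and 3.13 CPM in irradiated MB49 cells, with no overlap (7.0 ± 0.36, adjusted p = 1.44e-09). Pdx1, a transcription factor of pancreatic development, stood at 21.6, 20.1 and 23.6 CPM in irradiated KPC cells, against 2.99, 2.94 and 2.80 CPM in irradiated MB49 cells (2.90 ± 0.15, adjusted p = 1.15e-11). The endoderm factor genes Gata4 and Foxa2 were read in irradiated KPC cells alone, with 556 and 329 counts against 0, at least 182-fold and 108-fold higher when the group at 0 is set to 3 counts in sum. Gata6, a relative of Gata4, had 1062 counts against 1. The related factor gene Foxa3 went the other way, at 1.54, 1.21 and 1.14 CPM in irradiated KPC cells, against 92.6, 103 and 72.9 CPM in irradiated MB49 cells (-6.10 ± 0.19, adjusted p = 2.09e-14). Sox9, another ductal marker, did not pass the test (134 ± 13.8 CPM in irradiated KPC cells and 143 ± 24.1 CPM in irradiated MB49 cells, -0.10 ± 0.14, adjusted p = 0.546).

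Irradiated MB49 cells lacked uroplakins, the defining markers of bladder epithelium. The uroplakin genes Upk1b, Upk2 and Upk3a, which build the plaques of the bladder's surface cells, had at most 0.114 CPM in any of the 6 irradiated libraries. Of 9 tested urothelial markers 4 were higher and 2 lower in irradiated KPC cells. Pparg, a nuclear receptor of urothelial differentiation, had 1594 counts in irradiated KPC cells and 1 in irradiated MB49 cells. Gata3, a transcription factor of urothelium, was also higher in KPC at 14.5, 14.4 and 15.1 CPM in irradiated KPC cells, against 4.32, 3.57 and 3.73 CPM in irradiated MB49 cells (1.92 ± 0.16, adjusted p = 1.13e-08). The T-box genes split: Tbx2 had 651 counts in KPC and 0 in MB49 cells, at least 213-fold higher, while Tbx3 had 0 counts in KPC and 9616 in MB49 cells, at least 3270-fold lower in KPC. Foxa1, a further urothelial factor gene, was lower in KPC (-1.52, adjusted p = 6.55e-06). Ptprc, which encodes CD45 of leukocytes, had 0 counts in irradiated KPC and 1 in irradiated MB49 cells. Markers of immune cells summed to 98.8 to 107.1 CPM in KPC and 62.4 to 73.7 CPM in MB49 libraries, with 14 and 7 of 24 members at 0. Most of that sum was Cd14, at 95.6, 92.9 and 101 CPM in irradiated KPC cells, against 66.2, 66.9 and 56 CPM in irradiated MB49 cells.

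Neither line fell plainly on the epithelial or the mesenchymal side. Of 29 tested epithelial junction and surface genes 17 were higher and 9 lower in irradiated KPC cells (median 0.87), and of 23 mesenchymal transition genes 11 were higher and 7 lower (median 0.90, or 0.35 from the irradiated libraries alone). Cdh1, which encodes E-cadherin, stood at 153, 132 and 143 CPM in irradiated KPC cells, against 0.0575, 0.0482 and 0.0933 CPM in irradiated MB49 cells, so that it was near the floor in MB49 (10.94 ± 1.06, adjusted p = 1.67e-05). Spint2, an inhibitor of epithelial surface proteases, had 129 ± 11.3 CPM in irradiated KPC cells and 0.0638 ± 0.0738 CPM in irradiated MB49 cells. The 9 members lower in KPC included the tight junction genes Cldn1, Cldn3, Cldn4, Cldn6 and F11r. Cldn6 had 0, 0.0867 and 0.343 CPM in irradiated KPC cells, against 90.2, 92.6 and 74.9 CPM in irradiated MB49 cells. Cldn3 had 19.6, 16.3 and 19.3 CPM in irradiated KPC cells, against 189.7, 207 and 162 CPM in irradiated MB49 cells (-3.34 ± 0.21, adjusted p = 5.82e-10). Epcam was at or under 0.347 CPM in all 6 irradiated libraries.

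Among mesenchymal genes Foxc2, a transcription factor, had 2566 counts in irradiated KPC and 0 in irradiated MB49 cells, at least 839-fold higher. Acta2, smooth muscle actin, stood at 40.8, 39.2 and 42.5 CPM in irradiated KPC cells, against 0.115, 0.289 and 0.0933 CPM in irradiated MB49 cells (7.88 ± 1.74, adjusted p = 0.00376). The integrin gene Itgb3 stood at 42, 32.4 and 43.6 CPM in irradiated KPC cells, against 0.230, 0.145 and 0.373 CPM in irradiated MB49 cells (7.26 ± 0.27, adjusted p = 2.29e-13). Snai2, whose protein shuts off E-cadherin, was not read in KPC, with 0 counts there and 402 in MB49 cells, at least 137-fold lower in KPC. The transcription factor gene Twist2 (-8.57) and the adhesion gene Ncam1 (-4.91) were also lower in KPC, with adjusted p = 4.3e-12 and 3.91e-13. Vim, the mesenchymal intermediate filament gene, stood high in both, at 8912, 8688 and 8704 CPM in irradiated KPC cells, against 12026, 11875 and 10209 CPM in irradiated MB49 cells. The groups did not overlap, but the difference was small (-0.37 ± 0.13, adjusted p = 0.0171). Without any of KPC replicates 1, 2 and 3 or MB49 replicates 1 and 2 of the irradiated libraries its adjusted p was 0.0504 to 0.0649 (-0.38 to -0.33).

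Of 11 tested keratin genes 6 were higher and 4 lower in irradiated KPC cells, with a median of 1.39 that moved to 0.22 to 0.34 without KPC replicate 1, 2 or 3 or MB49 replicate 2 of the irradiated libraries. Krt7, a keratin of simple and ductal epithelia, had 55, 53 and 62.6 CPM in irradiated KPC cells, against 7.25, 8.25 and 8.07 CPM in irradiated MB49 cells (2.85 ± 0.25, adjusted p = 6.89e-08). Krt16, which skin makes under stress, had 40.6, 42.7 and 44.9 CPM in irradiated KPC cells, against 6.56, 7.43 and 5.69 CPM in irradiated MB49 cells (2.70 ± 0.20, adjusted p = 2.49e-09). On the other side were the basal keratin Krt14 (0.447, 0.217 and 0.172 CPM in irradiated KPC cells, against 5.81, 7.33 and 5.79 CPM in irradiated MB49 cells, -4.47 ± 0.35, adjusted p = 2.19e-08) and the simple epithelial Krt18 (1122 ± 64.2 CPM in irradiated KPC cells and 1732 ± 247 CPM in irradiated MB49 cells, -0.63 ± 0.13, adjusted p = 0.000508). Krt8, the usual partner of Krt18, did not pass the test (1825 ± 124 CPM in irradiated KPC cells and 1508 ± 231 CPM in irradiated MB49 cells, 0.27 ± 0.14, adjusted p = 0.0861), but passed by DESeq2 (0.34, adjusted p = 0.022).

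**Figure D2:**
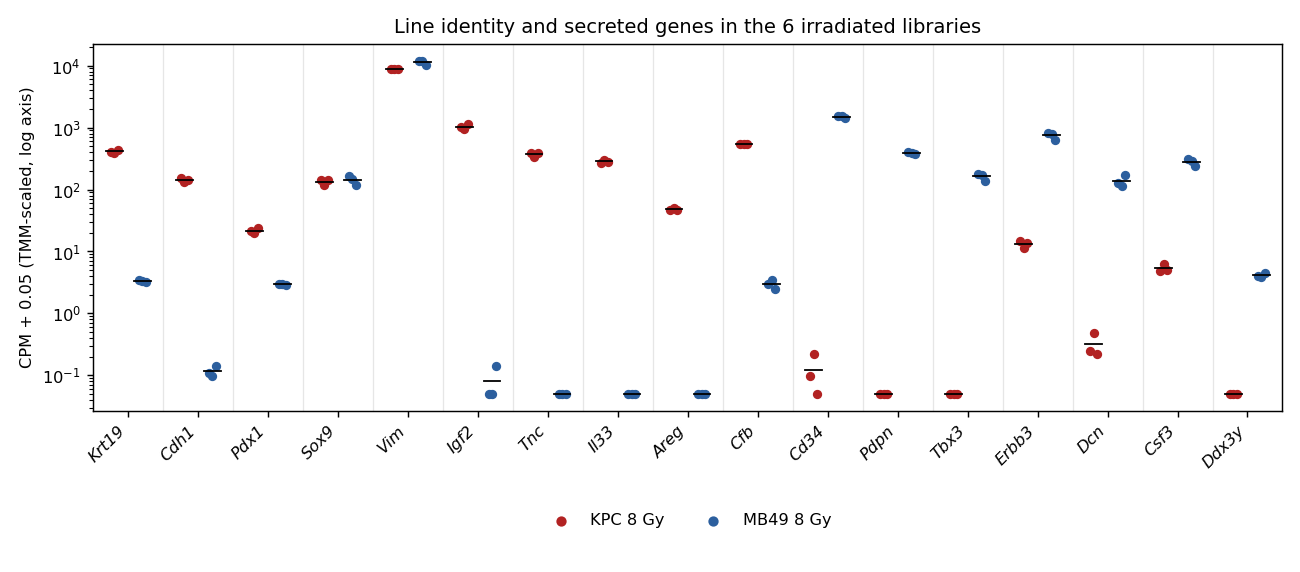
Levels of genes of line identity and secretion in each irradiated library, as CPM plus 0.05 on a log axis, with KPC libraries left (red) and MB49 libraries right (blue) and the mean as a bar. Points at the bottom edge are libraries with 0 counts: Tnc, Il33 and Areg in MB49, Pdpn, Tbx3 and Ddx3y in KPC. Sox9 and Vim lie at nearly the same height in both lines.

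Many genes were present in a single line. At 10 CPM or more in every library of 1 line and under 0.5 CPM in every library of the other, 179 genes were limited to irradiated KPC cells and 133 to irradiated MB49 cells. Of the 179, 131 met the same limits in the control means and 143 were at 10 CPM or more on average in KPC controls. Of the 133, 89 met the same limits in the control means and 95 were at 10 CPM or more in MB49 controls. Without MB49 control replicate 3, 137 of the 179 and 88 of the 133 met them. Several of the genes of largest difference were read as 0 in the other line. On the KPC side these included the membrane traffic GTPase gene Arl4c (16857 counts, at least 5510-fold higher), the ganglioside synthase gene St3gal5 (at least 4440-fold), the thrombomodulin gene Thbd (at least 1610-fold) and the thrombin receptor gene F2r (at least 1060-fold). On the MB49 side were Pdpn, the podoplanin gene of lymphatic and invasive cells (23116 counts, at least 7850-fold lower in KPC), the metal-binding protein gene Mt3 (at least 3720-fold), the cell adhesion gene Cadm3 (at least 3320-fold) and the homeobox gene Irx2 (at least 2160-fold). Cd34, a surface sialomucin gene known from blood stem cells and endothelium, stood at 0.0496, 0.173 and 0 CPM in irradiated KPC cells, against 1555, 1528 and 1419 CPM in irradiated MB49 cells (-14.06 ± 0.30, adjusted p = 7.48e-16).

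The lines also differed in genes linked to body position, the Y chromosome and parental origin. Hox genes, which record position along the body axis, differed member by member. Of 21 tested 10 were higher and 6 lower in irradiated KPC cells, with a median of 0.88 that fell to 0.00 by DESeq2, so no direction is given for the family. Among the 10 higher were Hoxa3, Hoxa5, Hoxa6 and Hoxa7, and Hoxa5 had 6.40, 5.38 and 7.43 CPM in irradiated KPC cells, against 0.288, 0.579 and 0.513 CPM in irradiated MB49 cells (3.76 ± 0.30, adjusted p = 7.67e-09). The 6 lower were Hoxa9, Hoxb7, Hoxb9, Hoxb13, Hoxd3 and Hoxd4. Hoxb13, the most posterior gene of its cluster, had 0 counts in KPC and 519 in MB49 cells, at least 176-fold lower in KPC. Its neighbour Hoxb9 had 0.0496, 0.217 and 0 CPM in irradiated KPC cells, against 20.7, 17 and 17.5 CPM in irradiated MB49 cells (-7.47 ± 0.32, adjusted p = 1.49e-12). All 4 tested Y-linked genes were lower in KPC. Xist was at 0 CPM in every irradiated KPC library and at most 0.0482 CPM in irradiated MB49 libraries. The sex of the lines was not tested. Eif2s3y had 0 counts in KPC and 631 in MB49 cells, at least 214-fold lower, and Kdm5d had 0.0496, 0.0867 and 0.114 CPM in irradiated KPC cells, against 4.89, 5.50 and 7.60 CPM in irradiated MB49 cells (-6.10 ± 0.48, adjusted p = 5.87e-09). Of 10 tested imprinted genes 4 were higher and 5 lower. Igf2, the growth factor gene expressed from the paternal copy, had 1030.3, 936 and 1153 CPM in irradiated KPC cells, against 0, 0 and 0.0933 CPM in irradiated MB49 cells, 62518 counts against 2. Its clearance receptor gene Igf2r was also higher in KPC (116 ± 12.4 CPM in irradiated KPC cells and 32.9 ± 2.61 CPM in irradiated MB49 cells, 1.82 ± 0.17, adjusted p = 6.79e-08).

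The matrix that the cells transcribed was of different make. Of 27 tested matrix glycoprotein and proteoglycan genes 17 were higher and 5 lower in irradiated KPC cells (median 1.89, or 0.60 by DESeq2). Of 28 collagen and laminin genes 9 were higher and 16 lower (median -0.78, or -0.36 by DESeq2). Tnc, which encodes tenascin-C of wound and tumour stroma, had 387, 338 and 388 CPM in irradiated KPC cells, against 0, 0 and 0 CPM in irradiated MB49 cells, at least 7320-fold higher. Fn1, the fibronectin gene, had 5175, 4339.5 and 5332 CPM in irradiated KPC cells, against 545, 474 and 325 CPM in irradiated MB49 cells (3.47 ± 0.25, adjusted p = 2.78e-09). Ccn2, a matricellular protein gene that responds to stretch and TGF-beta, had 2345 counts in KPC and 2 in MB49 cells. The proteoglycan genes Vcan and Dcn lay on the MB49 side. Vcan had 0.199, 0.0867 and 0.114 CPM in irradiated KPC cells, against 139, 119 and 156 CPM in irradiated MB49 cells (-9.97 ± 0.46, adjusted p = 1.9e-10). Dcn, which encodes decorin, had 0.199, 0.434 and 0.172 CPM in irradiated KPC cells, against 126, 113 and 171 CPM in irradiated MB49 cells (-8.91 ± 0.27, adjusted p = 1.69e-14). Dcn and Pdgfra are also defining markers of fibroblasts, and the fibroblast and endothelial markers summed to 85.5 to 105.5 CPM in irradiated KPC and 196.2 to 245.4 CPM in irradiated MB49 libraries, with 8 and 6 of 19 members at 0. Pdgfra was at 7.64, 8.11 and 8.52 CPM in irradiated KPC cells, against 39.4, 40.5 and 39 CPM in irradiated MB49 cells (-2.29 ± 0.15, adjusted p = 4.76e-10), whereas Pdgfrb had 3081 counts in KPC and 2 in MB49 cells. The endothelial genes Pecam1 and Cdh5 were at or under 1.44 CPM in all 6 libraries. Whether cells of another type account for part of this was not tested.

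Collagen and laminin genes followed their own division. Col6a3, a chain of the microfibrillar collagen VI, had 273, 229 and 299 CPM in irradiated KPC cells, against 36.8, 35.1 and 27 CPM in irradiated MB49 cells (3.02 ± 0.18, adjusted p = 9.39e-11). Col1a1, a chain of fibrillar collagen I, had 36, 27.8 and 37.4 CPM in irradiated KPC cells, against 6.39, 5.98 and 4.95 CPM in irradiated MB49 cells (2.55 ± 0.33, adjusted p = 2e-05). Lamb3, a chain of the epithelial laminin-332, was on the MB49 side with 1.79, 1.48 and 1.66 CPM in irradiated KPC cells, against 146, 141 and 102 CPM in irradiated MB49 cells (-6.30 ± 0.21, adjusted p = 5.15e-14). Lama2, a chain of muscle-type laminin, was as well (-6.16, adjusted p = 5.62e-10), while Lama4, a chain of vascular laminin, had 778 counts in KPC and 0 in MB49 cells, at least 255-fold higher. Of 23 integrin and adhesion receptor genes 8 were higher and 11 lower. Itgb4, which pairs with alpha 6 to bind laminin-332, was lower in KPC at 262, 219 and 278 CPM in irradiated KPC cells, against 918, 847 and 588 CPM in irradiated MB49 cells (-1.63 ± 0.17, adjusted p = 2.85e-07), and Itga8 had 2 counts in KPC and 1861 in MB49 cells.

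Extracellular protease and inhibitor genes stood mostly on the MB49 side, with 19 of 29 tested lower and 9 higher in irradiated KPC cells (median -0.58). Proteases and inhibitors were not counted apart. Mmp9, a gelatinase that cuts basement membrane, had 1.74, 1.08 and 1.31 CPM in irradiated KPC cells, against 289, 279.5 and 196 CPM in irradiated MB49 cells (-7.53 ± 0.23, adjusted p = 1.53e-14). Plau, the urokinase gene that activates plasmin, had 29.3, 27.2 and 28 CPM in irradiated KPC cells, against 649.8, 646 and 539 CPM in irradiated MB49 cells (-4.44 ± 0.13, adjusted p = 1.66e-14). The kallikrein gene Klk10 was lower too (-4.17, adjusted p = 1.86e-09). On the KPC side Htra1, a secreted serine protease gene, had 509, 502 and 530.2 CPM in irradiated KPC cells, against 3.68, 3.28 and 4.15 CPM in irradiated MB49 cells (7.11 ± 0.15, adjusted p = 7.48e-16), the membrane-bound metalloprotease gene Mmp15 differed by 2.88 and Klk8 by 5.82 (adjusted p = 1.83e-10 and 1.45e-10).

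Each line carried its own set of growth factors and receptors. Of 41 growth factor and TGF-beta genes 16 were higher and 18 lower in irradiated KPC cells. Besides Igf2, irradiated KPC cells had 12760 counts of the IGF-binding protein gene Igfbp7 and 2122 of the morphogen gene Bmp4, each with 0 counts in irradiated MB49 cells, at least 4170-fold and 694-fold higher. Irradiated MB49 cells had 2257 counts of Vegfc, which drives lymphatic growth, and 686 of Tgfb2, each with 0 in irradiated KPC cells, at least 767-fold and 233-fold lower in KPC. Igfbp4, another IGF-binding protein gene, had 17.8, 15.9 and 16.7 CPM in irradiated KPC cells, against 725, 759 and 565 CPM in irradiated MB49 cells (-5.35 ± 0.17, adjusted p = 2.09e-14).

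In the EGF family ligands and receptors were divided between the lines. The ligand gene Areg had 46.8, 49.9 and 47 CPM in irradiated KPC cells, against 0, 0 and 0 CPM in irradiated MB49 cells, at least 954-fold higher. The ligand gene Nrg1 had 212, 202 and 205 CPM in irradiated KPC cells, against 51, 49.3 and 43.9 CPM in irradiated MB49 cells (2.10 ± 0.12, adjusted p = 3.73e-11). The receptor gene Erbb3, which binds neuregulins, was on the MB49 side with 14.9, 11.5 and 13.8 CPM in irradiated KPC cells, against 827, 787 and 621 CPM in irradiated MB49 cells (-5.80 ± 0.20, adjusted p = 7e-14), as was its signalling partner Erbb2 (38.5 ± 4.26 CPM in irradiated KPC cells and 173 ± 37.4 CPM in irradiated MB49 cells, -2.16 ± 0.17, adjusted p = 3.57e-09) and the ligand gene Btc (-4.41, adjusted p = 2.84e-10). In all 5 of 13 tested members were higher and 7 lower. Among 43 Wnt, Notch and Hippo genes 25 were higher and 11 lower in KPC (median 0.62). The Notch ligand genes parted: Jag2 had 247, 215 and 263 CPM in irradiated KPC cells, against 0.748, 1.45 and 1.12 CPM in irradiated MB49 cells (7.75 ± 0.23, adjusted p = 1.66e-14). Jag1 had 14.7, 13.4 and 13.9 CPM in irradiated KPC cells, against 139, 131 and 121 CPM in irradiated MB49 cells (-3.22 ± 0.18, adjusted p = 4.18e-11), and Dll1 differed by -3.84 (adjusted p = 1.57e-11). Tead2, a DNA-binding partner of the Hippo effector YAP, had 10980 counts in KPC and 1 in MB49 cells.

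Of 34 genes of RAS-ERK signalling and its feedback 8 were higher and 12 lower in irradiated KPC cells. The feedback inhibitor genes took both directions: Spry1 and Spry4 were higher (1.82 and 2.51, adjusted p = 1.51e-09 and 1.88e-09), while the ERK phosphatase genes Dusp7 and Dusp5 were lower (-1.99 and -1.57, adjusted p = 5.29e-10 and 2.59e-08). Myc, the growth-promoting transcription factor gene, was lower at 52.2, 49.3 and 56 CPM in irradiated KPC cells, against 81.9, 75.2 and 60.7 CPM in irradiated MB49 cells (-0.47 ± 0.13, adjusted p = 0.00542).

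The interferon-stimulated genes on the list were higher in irradiated KPC cells almost throughout. Of 57 tested members 53 were higher and 2 lower in irradiated KPC cells, with a median difference of 2.43, against 31% higher and a median of -0.089 over all genes. By at least 4-fold 34 were higher and 1 lower. The controls of the lines already differed in this direction, with 48 members higher and 4 lower in KPC controls and a median of 2.76, where 33% and 34.4% of all genes were called higher and lower, or 48 and 3 with a median of 3.36 without MB49 control replicate 3. In the test of the difference between the 8 Gy and control comparisons, 18 members changed in each direction, where 20.9% and 22% of all genes did, or 15 toward KPC and 20 toward MB49 without that library. Thus the gap was wider after 8 Gy for some members and narrower for others.

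Values of single members show the spread of the gap. Usp18, a protease that takes the ubiquitin-like protein ISG15 off its targets and damps interferon signalling, had 259, 256 and 270.4 CPM in irradiated KPC cells, against 1.21, 2.22 and 1.12 CPM in irradiated MB49 cells (7.42 ± 0.19, adjusted p = 4.41e-15). Isg15 itself had 419.9, 441 and 426 CPM in irradiated KPC cells, against 5.06, 7.19 and 6.16 CPM in irradiated MB49 cells (6.12 ± 0.17, adjusted p = 8.73e-15). Ifit3b, of the family that binds foreign RNA, had 268, 281 and 219 CPM in irradiated KPC cells, against 0.518, 0.916 and 1.03 CPM in irradiated MB49 cells (8.25 ± 0.23, adjusted p = 7.36e-15). It is a close copy of Ifit3, and reads may be shared between them. Ifi44 had 80.2, 93.8 and 68.6 CPM in irradiated KPC cells, against 0.173, 0.0964 and 0.327 CPM in irradiated MB49 cells (8.61 ± 0.31, adjusted p = 1.26e-13). In each of the 4 genes the KPC libraries lay at least an order of magnitude above the MB49 libraries.

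The exceptions on this list were few, but the list was chosen with earlier results of these data known. Outside it, the interferon-inducible gene Ifi27, described below, was lower in irradiated KPC cells. Parp12, an ADP-ribosyl transferase gene of the antiviral response, was lower in KPC at 4.81, 5.51 and 5.38 CPM in irradiated KPC cells, against 87.3, 82 and 74 CPM in irradiated MB49 cells (-3.95 ± 0.16, adjusted p = 4.09e-13). Socs1, which encodes the feedback inhibitor of JAK kinases, had 118, 95.7 and 127 CPM in irradiated KPC cells, against 181, 205 and 154 CPM in irradiated MB49 cells, with a small difference (-0.67 ± 0.25, adjusted p = 0.0312). Its call was lost without replicate 1 or 2 of either irradiated line (-0.69 to -0.55, adjusted p of 0.0671 to 0.119). Trim21 and Cxcl11 did not pass (0.37 and -0.18, adjusted p = 0.0796 and 0.488).

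Promoters of 5 members are given because they stand at the ends of this range, with Isg15 and Ifit3b far higher in KPC, Irf7 the interferon regulatory factor gene described next, and Parp12 and Socs1 lower. They are the 250 bases before to 50 bases after the transcription start, from RefSeq on GRCm38.p6, 5′ to 3′ on the gene's strand. Capitals mark matches to the core of the interferon-stimulated response element, TTTC, any 2 bases and TTTC, on either strand; overlapping matches run together. The regions are chr4:156200769-156201068, minus strand, for Isg15, chr19:34607707-34608006, plus strand, for Ifit3b, chr7:141266375-141266674, minus strand, for Irf7, chr6:39118300-39118599, minus strand, for Parp12, and chr16:10785487-10785786, minus strand, for Socs1.
Isg15: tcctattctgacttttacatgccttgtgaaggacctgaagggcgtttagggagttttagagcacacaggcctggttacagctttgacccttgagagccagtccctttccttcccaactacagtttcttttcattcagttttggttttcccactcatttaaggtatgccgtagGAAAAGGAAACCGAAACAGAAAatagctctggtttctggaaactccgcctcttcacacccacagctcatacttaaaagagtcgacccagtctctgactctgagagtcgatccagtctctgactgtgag
Ifit3b: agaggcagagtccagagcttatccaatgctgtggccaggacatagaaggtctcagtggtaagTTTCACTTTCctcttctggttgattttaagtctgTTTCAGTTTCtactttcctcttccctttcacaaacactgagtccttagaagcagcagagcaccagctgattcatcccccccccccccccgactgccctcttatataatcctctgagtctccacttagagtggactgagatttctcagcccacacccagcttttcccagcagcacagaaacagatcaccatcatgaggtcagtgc
Irf7: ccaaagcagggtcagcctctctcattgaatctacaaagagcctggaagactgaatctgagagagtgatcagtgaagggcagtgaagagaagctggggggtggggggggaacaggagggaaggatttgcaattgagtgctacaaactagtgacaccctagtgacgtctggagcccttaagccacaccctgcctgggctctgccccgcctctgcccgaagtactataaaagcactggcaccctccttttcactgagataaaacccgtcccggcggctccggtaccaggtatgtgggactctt
Parp12: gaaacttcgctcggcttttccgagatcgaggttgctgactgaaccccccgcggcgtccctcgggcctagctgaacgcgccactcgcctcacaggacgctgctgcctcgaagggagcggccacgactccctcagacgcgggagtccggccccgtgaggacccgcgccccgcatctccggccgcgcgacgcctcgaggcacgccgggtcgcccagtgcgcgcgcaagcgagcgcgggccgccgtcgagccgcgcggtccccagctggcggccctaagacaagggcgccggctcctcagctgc
Socs1: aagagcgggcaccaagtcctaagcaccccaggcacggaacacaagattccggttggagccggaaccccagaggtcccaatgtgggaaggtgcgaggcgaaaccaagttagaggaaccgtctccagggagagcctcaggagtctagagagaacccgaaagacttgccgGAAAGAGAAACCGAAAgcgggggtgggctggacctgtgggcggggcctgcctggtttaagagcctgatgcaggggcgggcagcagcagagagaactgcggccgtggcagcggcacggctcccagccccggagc
Isg15 held 3 matches, Ifit3b and Socs1 2 each, and Irf7 and Parp12 had none in this window. Of 41 tested interferon-stimulated genes with a RefSeq promoter 25 held the core (61.0%), against 323 of 10343 tested genes (3.12%). Of the 26 matched members at least 4-fold higher in KPC 14 held it (53.8%), and of the other 15 matched members 11 did (73.3%). The gamma-activated site TTCNNNGAA, on either strand, was in 12 of the 41 (29.3%) and in 701 of the 10343 (6.78%). No member printed here held it, and a match is a stretch of letters, not a measured binding site.

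Genes of interferon signalling leaned toward KPC as well, with a smaller median. Of 33 genes of interferon receptors and JAK-STAT signalling 19 were higher and 6 lower (median 0.58). The list shares members with the interferon-stimulated genes, such as Usp18. In controls 10 were higher and 10 lower in KPC (median -0.15), or 11 and 11 (median -0.18) without MB49 control replicate 3. Irf7, which amplifies type I interferon, had 1161, 1133 and 1233 CPM in irradiated KPC cells, against 31.4, 32.8 and 27.6 CPM in irradiated MB49 cells (5.26 ± 0.16, adjusted p = 1.93e-14). Irf9, whose protein helps carry the interferon signal to DNA, had 138, 131 and 139 CPM in irradiated KPC cells, against 59.9, 59.3 and 45.6 CPM in irradiated MB49 cells (1.31 ± 0.12, adjusted p = 2.95e-08). Irf1, an interferon gamma response factor, differed by 0.86 (adjusted p = 5.07e-06). Irf8 and the receptor gene Ifnlr1, which binds interferon lambda, were lower (-2.05 and -3.73, adjusted p = 2.77e-07 and 3.24e-11). The interferon gamma receptor gene Ifngr1 did not pass (-0.21 ± 0.10, adjusted p = 0.0805). Interferon genes themselves were at the floor. None of 10 passed the filter on low counts, they summed to at most 0.286 CPM in any irradiated library, and Ifnb1 had 10 counts in KPC and 1 in MB49 cells.

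**Figure D3:**
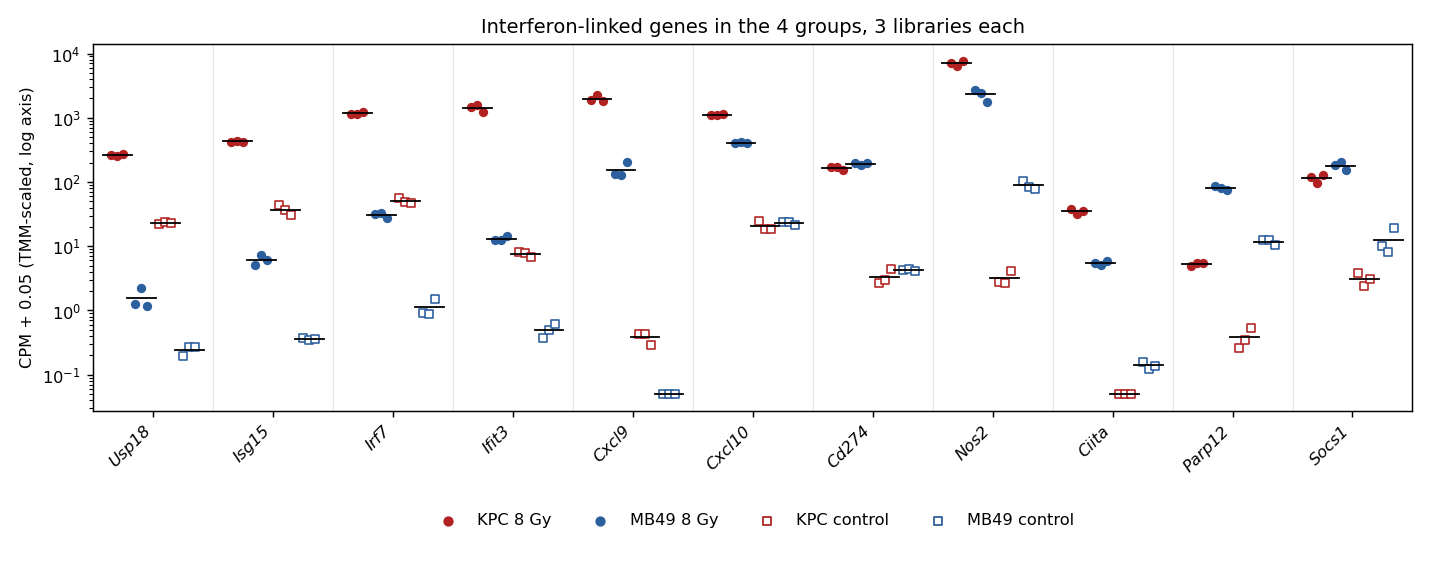
Levels of 11 interferon-linked genes in each library, as CPM plus 0.05 on a log axis, for irradiated KPC and MB49 cells (filled circles, red and blue) and their controls (open squares, same colours), with means as bars. Usp18, Isg15 and Irf7 lie higher in KPC in both conditions, Nos2 and Ciita change places between conditions, and Parp12 lies higher in MB49 in both.

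Genes of cytosolic DNA and RNA sensing leaned the same way, with 16 of 25 higher and 3 lower in irradiated KPC cells (median 1.17). This list is not separate from the one before, since both hold Irf7. In controls 10 were higher and 6 lower in KPC (median 0.29), or 9 and 6 (median 0.47) without MB49 control replicate 3. Dhx58, a regulator of RNA sensing, had 255, 250 and 262 CPM in irradiated KPC cells, against 10.9, 10.3 and 10.9 CPM in irradiated MB49 cells (4.58 ± 0.14, adjusted p = 1.97e-14). Ifih1, which encodes the long double-stranded RNA sensor MDA5, had 145 counts in KPC and 0 in MB49 cells, at least 47.4-fold higher. Enpp1, which degrades the DNA sensing messenger cGAMP, had 1202 counts in KPC and 2 in MB49 cells. The DNA-binding inflammasome gene Aim2 was lower at 6.05, 5.81 and 5.43 CPM in irradiated KPC cells, against 20.1, 20.4 and 34.2 CPM in irradiated MB49 cells (-2.11 ± 0.20, adjusted p = 5.6e-08), as was the kinase gene Ikbke (-1.61, adjusted p = 8.3e-10).

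Antigen presentation did not follow the interferon genes as a whole. Of 26 MHC class I presentation genes 14 were higher and 7 lower in irradiated KPC cells (median 0.35). H2-K1, a classical class I heavy chain gene, had 2983, 2788 and 3023 CPM in irradiated KPC cells, against 1573, 1685 and 1459 CPM in irradiated MB49 cells (0.90 ± 0.14, adjusted p = 1.72e-05), and H2-T22, a nonclassical one, differed by 1.76 (adjusted p = 1.41e-09). Mr1, which presents vitamin metabolites, had 11.2, 14.4 and 11.8 CPM in irradiated KPC cells, against 1.15, 0.530 and 0.700 CPM in irradiated MB49 cells (3.99 ± 0.24, adjusted p = 1.57e-10). The H2-Q genes, near-identical copies between which reads may be split, were lower. H2-Q4 had 58.8, 54.6 and 60.9 CPM in irradiated KPC cells, against 173, 194 and 192 CPM in irradiated MB49 cells. H2-Q7 had 3.27, 2.17 and 4.35 CPM in irradiated KPC cells, against 85.9, 90.6 and 79.1 CPM in irradiated MB49 cells. H2-Q6 had 1 count in KPC and 3005 in MB49 cells. Tap1, which pumps peptides to class I molecules, was lower as well (804 ± 77.5 CPM in irradiated KPC cells and 1205 ± 186 CPM in irradiated MB49 cells, -0.58 ± 0.13, adjusted p = 0.00104). B2m, the class I light chain gene, did not pass (1778 ± 55.3 CPM in irradiated KPC cells and 1484 ± 281 CPM in irradiated MB49 cells, 0.26 ± 0.16, adjusted p = 0.162), and the groups overlapped. Without MB49 replicate 3 of the irradiated libraries it was called higher in KPC (0.42, adjusted p = 0.0295).

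Of 10 tested genes of MHC class II presentation 6 were higher and 2 lower in irradiated KPC cells. H2-Ab1 had 12.8, 13.2 and 15.9 CPM in irradiated KPC cells, against 0.978, 2.07 and 1.31 CPM in irradiated MB49 cells (3.25 ± 0.37, adjusted p = 9.14e-07). H2-DMa, which loads peptide, had 39.6, 43 and 46.3 CPM in irradiated KPC cells, against 2.94, 2.70 and 2.43 CPM in irradiated MB49 cells (4.0 ± 0.17, adjusted p = 1.4e-12). Ciita, the class II transactivator gene, had 38.1, 31.5 and 35.9 CPM in irradiated KPC cells, against 5.35, 4.97 and 5.88 CPM in irradiated MB49 cells (2.70 ± 0.16, adjusted p = 4.63e-10). The modulator gene H2-Oa was lower (-5.05, adjusted p = 5.05e-09).

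Among 25 ligands of T and NK cell receptors 10 were higher and 12 lower. Cd24a, which in human restrains phagocytes through a Siglec receptor, had 132, 140.4 and 114 CPM in irradiated KPC cells, against 0.0575, 0.0482 and 0.0933 CPM in irradiated MB49 cells (10.80 ± 0.33, adjusted p = 1.91e-14). The tryptophan-degrading enzyme gene Ido1 had 56.6, 62.4 and 53.4 CPM in irradiated KPC cells, against 1.5, 1.45 and 1.03 CPM in irradiated MB49 cells (5.44 ± 0.20, adjusted p = 2.12e-12). Lgals9, which encodes galectin-9, had 575, 560.4 and 632 CPM in irradiated KPC cells, against 114, 122 and 103 CPM in irradiated MB49 cells (2.38 ± 0.11, adjusted p = 6.62e-12). The costimulatory receptor gene Cd40 was lower at 1.69, 0.781 and 0.858 CPM in irradiated KPC cells, against 77.6, 83 and 70.6 CPM in irradiated MB49 cells (-6.12 ± 0.23, adjusted p = 1.74e-13). So was Pvr, the poliovirus receptor gene seen by TIGIT and CD226 (158 ± 2.76 CPM in irradiated KPC cells and 473 ± 25.1 CPM in irradiated MB49 cells, -1.58 ± 0.12, adjusted p = 3.02e-09). Cd274, which encodes PD-L1, did not pass, with 168, 169 and 154 CPM in irradiated KPC cells, against 200.2, 183 and 197 CPM in irradiated MB49 cells (-0.24 ± 0.13, adjusted p = 0.112). Calr, a chaperone that marks dying cells for uptake when exposed, was higher by 0.58 (adjusted p = 0.000273).

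Chemokine genes were divided. Of 21 tested genes 7 were higher and 10 lower in irradiated KPC cells. The T cell chemokine genes Cxcl9 and Cxcl10 were higher, while Cxcl11, given above, did not pass. Cxcl9 had 1906, 2243 and 1815 CPM in irradiated KPC cells, against 131, 129.6 and 206 CPM in irradiated MB49 cells (3.68 ± 0.19, adjusted p = 1.03e-10). Cxcl10 had 1089, 1121 and 1133 CPM in irradiated KPC cells, against 402, 426 and 402 CPM in irradiated MB49 cells (1.44 ± 0.13, adjusted p = 2.25e-08). Cxcl16, which binds CXCR6 on T cells, had 119.9, 117 and 132 CPM in irradiated KPC cells, against 0.173, 0.0482 and 0.0933 CPM in irradiated MB49 cells (10.18 ± 0.25, adjusted p = 2.54e-15). The monocyte chemokine genes were lower: Ccl2 had 3.33, 2.82 and 2.40 CPM in irradiated KPC cells, against 95.2, 107 and 133 CPM in irradiated MB49 cells (-5.29 ± 0.23, adjusted p = 1.74e-12). Ccl7 had 1.59, 1.48 and 1.83 CPM in irradiated KPC cells, against 31.8, 36.1 and 43 CPM in irradiated MB49 cells (-4.51 ± 0.26, adjusted p = 3.8e-10). Neutrophil chemokine genes went in both directions, since Cxcl5 had 185, 205 and 176 CPM in irradiated KPC cells, against 0.633, 0.482 and 0.653 CPM in irradiated MB49 cells (8.31 ± 0.19, adjusted p = 1.49e-15), while Cxcl1, Cxcl2 and Cxcl3 stood lower in irradiated KPC cells (-1.37, -0.84 and -1.14, adjusted p = 6.3e-08, 4.99e-05 and 5.74e-07).

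Interleukin and colony-stimulating factor genes lay mostly on the MB49 side, with 15 of 25 tested members lower and 4 higher in irradiated KPC cells (median -1.09). Csf3, which encodes the neutrophil growth factor G-CSF, had 4.76, 6.20 and 4.92 CPM in irradiated KPC cells, against 312, 294 and 242 CPM in irradiated MB49 cells (-5.73 ± 0.17, adjusted p = 1.16e-14). Il6, an inflammatory cytokine of damaged cells, was low in both, at 0.844, 1.13 and 0.686 CPM in irradiated KPC cells, against 3.45, 3.23 and 6.48 CPM in irradiated MB49 cells (-2.29 ± 0.38, adjusted p = 7.28e-05). Il24 had 0.0867 ± 0.150 CPM in irradiated KPC cells and 10.9 ± 0.837 CPM in irradiated MB49 cells, and Tslp, an epithelial alarm cytokine, differed by -2.92 (adjusted p = 1.74e-07). There were 4 exceptions, Il33, Il11, Il36a and Csf1. Il33, an alarm cytokine held in the nucleus, had 272, 305 and 279.6 CPM in irradiated KPC cells, against 0, 0 and 0 CPM in irradiated MB49 cells, at least 5690-fold higher. Il11, of the IL-6 family, had 64.4, 63.1 and 60.9 CPM in irradiated KPC cells, against 1.84, 1.83 and 1.17 CPM in irradiated MB49 cells (5.29 ± 0.17, adjusted p = 3.54e-14), and the macrophage growth factor gene Csf1 was higher by a smaller 0.92 (adjusted p = 1.47e-05).

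Genes of the NF-kB system and its targets were lower more often than not, 19 of 34 against 5 higher (median -0.42). Traf1, an adaptor and target, had 1.74, 1.30 and 1.14 CPM in irradiated KPC cells, against 162, 156 and 127 CPM in irradiated MB49 cells (-6.72 ± 0.19, adjusted p = 7.36e-15). The prostaglandin E synthase gene Ptges had 13.6, 14 and 14.4 CPM in irradiated KPC cells, against 822, 832 and 664 CPM in irradiated MB49 cells (-5.79 ± 0.15, adjusted p = 4.24e-15). Ptgs2, which encodes the cyclooxygenase before it in that pathway, differed by -0.84 (adjusted p = 8.71e-05). Traf3, which restrains the alternative NF-kB pathway, was higher at 27, 23.5 and 27.4 CPM in irradiated KPC cells, against 0.978, 0.482 and 0.467 CPM in irradiated MB49 cells (5.36 ± 0.25, adjusted p = 4.39e-12). Acute phase and complement genes divided, 8 higher and 8 lower of 21. The complement genes Cfb and C2 were higher in KPC. Cfb had 551, 534 and 552 CPM in irradiated KPC cells, against 2.99, 3.38 and 2.43 CPM in irradiated MB49 cells (7.54 ± 0.26, adjusted p = 1.45e-13). C2 had 9.38, 8.93 and 10.5 CPM in irradiated KPC cells, against 0, 0.338 and 0.0466 CPM in irradiated MB49 cells (6.11 ± 0.53, adjusted p = 2.43e-08), while C3, the central component, was lower (means of 706 and 2501 CPM in KPC and MB49 cells, -1.83, adjusted p = 1.34e-08). The protease inhibitor genes Serpina3g, Serpina3m and Serpina3n, close copies of each other, were lower too. Serpina3g had 8.34, 9.76 and 7.66 CPM in irradiated KPC cells, against 154, 157 and 141 CPM in irradiated MB49 cells (-4.13 ± 0.18, adjusted p = 1.44e-11).

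Of 40 tested genes of the p53 pathway 9 were higher and 18 lower in irradiated KPC cells, with a median of -0.08, close to the -0.089 over all genes. Trp53, the p53 gene, was higher at 248, 237 and 270.5 CPM in irradiated KPC cells, against 90.4, 87.1 and 70.4 CPM in irradiated MB49 cells (1.61 ± 0.12, adjusted p = 4.12e-09), while Mdm2 and Mdm4, which hold p53 down, were lower. Mdm2 had 207, 222 and 194 CPM in irradiated KPC cells, against 332, 314 and 407 CPM in irradiated MB49 cells (-0.76 ± 0.12, adjusted p = 3.96e-05). Mdm4 differed by -1.52 (adjusted p = 3.58e-07). Cdkn1a, the gene of the p53-induced arrest protein p21, did not pass, at 946, 889 and 1029.9 CPM in irradiated KPC cells, against 866, 969 and 816 CPM in irradiated MB49 cells (0.11 ± 0.13, adjusted p = 0.469). Phlda3, a p53 target that inhibits AKT, was nearly missing from MB49 cells, with 639, 597 and 709 CPM in irradiated KPC cells, against 1.04, 1.74 and 2.10 CPM in irradiated MB49 cells (8.61 ± 0.24, adjusted p = 7.36e-15). Between conditions the list moved: 22 members were higher and 8 lower in KPC controls against MB49 controls (median 0.46), and in the test of the difference 5 changed upward and 22 downward. The controls gave 23 and 8 (median 0.52) and the test of the difference 5 and 24 without MB49 control replicate 3.

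Regulators of senescence went both ways, 7 higher and 7 lower of 26. Hmga2, a chromatin protein gene of growing and some senescent cells, had 3 counts in KPC and 2559 in MB49 cells, whereas its relative Hmga1 was higher in KPC (3242 ± 249.9 CPM in irradiated KPC cells and 1539 ± 234 CPM in irradiated MB49 cells, 1.07 ± 0.14, adjusted p = 3.53e-06). Ccne1, the cyclin that starts DNA replication, had 66.7, 72 and 79.1 CPM in irradiated KPC cells, against 14.3, 12.9 and 10.9 CPM in irradiated MB49 cells (2.52 ± 0.13, adjusted p = 1.7e-11). Cdkn2a, which encodes p16 and ARF, had 8 counts over the irradiated KPC and 5 over the irradiated MB49 libraries and was not tested. Glb1, the lysosomal beta-galactosidase gene, did not pass (-0.06 ± 0.13, adjusted p = 0.703). Lmnb1, the lamin gene often low in senescence, lay at the threshold (-0.27 ± 0.12, adjusted p = 0.0501) and was called lower in KPC under 4 alternatives (adjusted p of 0.00655 to 0.0497). It was also called lower without MB49 control replicate 3 (-0.27, adjusted p = 0.0291).

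Mitotic genes turned round between the conditions. Of 36 genes of mitosis and the phase before it 19 were higher and 5 lower in irradiated KPC cells (median 0.37), whereas 1 was higher and 32 lower in KPC controls against MB49 controls (median -1.43). In the test of the difference 34 changed upward and 0 downward. The controls gave 1 and 32 (median -1.46) and the test of the difference 33 and 0 without MB49 control replicate 3. Cdc20, which starts the separation of chromosomes, had 398, 352 and 414 CPM in irradiated KPC cells, against 89.2, 94.9 and 75.9 CPM in irradiated MB49 cells (2.16 ± 0.14, adjusted p = 2.62e-10). Foxm1, whose protein turns on genes for entry into mitosis, had 219, 191 and 229 CPM in irradiated KPC cells, against 73.7, 64.1 and 48.9 CPM in irradiated MB49 cells (1.77 ± 0.16, adjusted p = 3.4e-08). In controls Foxm1 had 71.7 ± 10.5 CPM in untreated KPC cells and 191 ± 27.7 CPM in untreated MB49 cells (-1.42 ± 0.16, adjusted p = 4.58e-07). The mitotic kinase gene Aurka differed by 1.62 after 8 Gy (adjusted p = 1.74e-09). Ccnb1, which encodes cyclin B1, had 111 ± 8.37 CPM in irradiated KPC cells and 68.8 ± 3.85 CPM in irradiated MB49 cells (0.69 ± 0.11, adjusted p = 3.12e-05). Controls had 10.7 ± 0.421 CPM in untreated KPC cells and 55.9 ± 4.97 CPM in untreated MB49 cells of it (-2.39 ± 0.12, adjusted p = 8.72e-12). Pttg1, which encodes securin, and the kinetochore gene Nuf2 were lower (-1.0 and -0.89, adjusted p = 3.41e-06 and 0.000394). Mki67, the proliferation marker gene, was lower at 29.1, 45.4 and 28.1 CPM in irradiated KPC cells, against 65.1, 39.8 and 51.4 CPM in irradiated MB49 cells (-0.60 ± 0.23, adjusted p = 0.0333). That call was lost without KPC replicate 1 or 3 or MB49 replicate 1 or 3 of the irradiated libraries (-0.61 to -0.41, adjusted p of 0.0793 to 0.148).

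DNA replication genes were higher in 27 of 42 and lower in 6 (median 0.44). The helicase gene Mcm5 had 342, 331 and 374 CPM in irradiated KPC cells, against 119, 122 and 83 CPM in irradiated MB49 cells (1.69 ± 0.14, adjusted p = 1.37e-08), the licensing factor gene Cdc6 differed by 1.88 and Mcm10 by 1.77 (adjusted p = 5.73e-09 and 1.07e-09), while E2f2, a transcription factor gene of the S phase, was lower (-2.36, adjusted p = 5.55e-10). Of 41 genes of DNA damage signalling and repair 9 were higher and 12 lower, near the shares over all genes or below them. Fanca, of the crosslink repair complex, and Xrcc1, of single-strand break repair, were higher (1.11 and 0.83, adjusted p = 1.88e-06 and 6.73e-05). Prkdc and Xrcc4, of double-strand break joining, were lower (-1.55 and -1.15, adjusted p = 6.34e-05 and 0.00072).

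**Figure D4:**
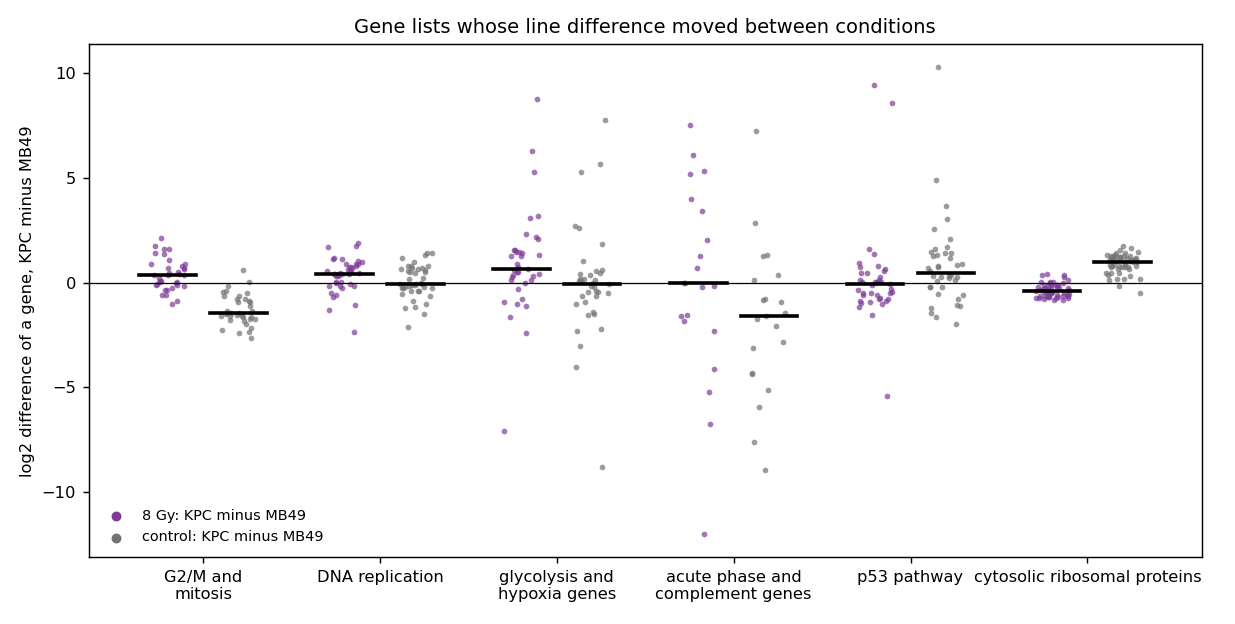
Log2 difference KPC over MB49 of each tested gene in 6 lists, after 8 Gy (purple, left) and in controls (grey, right), with the list's median as a bar. The G2/M genes lie around a median of 0.37 after 8 Gy and of -1.43 in controls, and the ribosomal protein genes around -0.37 and 1.01.

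Ribosomal protein genes turned the other way. After 8 Gy 2 of 52 tested genes were higher and 24 lower in KPC (median -0.37), against 44 higher and 1 lower in controls (median 1.01), and in the test of the difference 0 changed upward and 48 downward. The controls gave 47 and 1 (median 1.21) and the test of the difference 0 and 50 without MB49 control replicate 3. Rps19, of the small subunit, had 574, 526 and 557 CPM in irradiated KPC cells, against 726, 1003 and 1072 CPM in irradiated MB49 cells (-0.76 ± 0.26, adjusted p = 0.0188). Rpl23, of the large subunit, had 658, 660.1 and 626 CPM in irradiated KPC cells, against 816, 1076 and 1568 CPM in irradiated MB49 cells (-0.83 ± 0.26, adjusted p = 0.0138). Neither call was firm: Rps19 lost it without irradiated KPC replicate 2 or 3 or MB49 replicate 2 or 3 (-0.76 to -0.65, adjusted p of 0.0517 to 0.0881), and Rpl23 without irradiated MB49 replicate 3 (-0.55, adjusted p = 0.0867). Their shares of all counts moved likewise, with 6.03 to 6.06% in irradiated KPC and 7.05 to 8.53% in irradiated MB49 libraries, and 6.6 to 8.37% in KPC controls and 3.68 to 5.28% in MB49 controls. Short genes in general moved with them: in the octile of shortest genes (median length 831 bases) the median difference was -0.25 after 8 Gy and 0.5 in controls, and in that of the longest (6961 bases) -0.16 and -0.36. The part of gene length in this result was not tested. Of 13 mitochondrially encoded genes 7 were lower after 8 Gy and 0 higher (median -1.0). Their summed share of counts overlapped between the lines, at 0.565 to 0.813% in irradiated KPC and 0.619 to 0.939% in irradiated MB49 libraries. Among the genes called, mt-Nd2, of respiratory complex I, had 36.3, 51.6 and 49.9 CPM in irradiated KPC cells, against 95.5, 113 and 187 CPM in irradiated MB49 cells (-1.52 ± 0.26, adjusted p = 0.000173).

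Metabolic genes differed between the lines isoform by isoform. Of 37 glycolysis and hypoxia genes 24 were higher and 7 lower in irradiated KPC cells (median 0.66), while 12 were higher and 16 lower in KPC controls. Those control counts were 11 and 16 without MB49 control replicate 3. Aldoc, an aldolase isoform gene, had 93.6, 92.9 and 104 CPM in irradiated KPC cells, against 0.230, 0.241 and 0.187 CPM in irradiated MB49 cells (8.76 ± 0.18, adjusted p = 7.48e-16). The collagen prolyl hydroxylase gene P4ha2 had 63, 62.9 and 65.4 CPM in irradiated KPC cells, against 2.42, 1.64 and 0.980 CPM in irradiated MB49 cells (5.27 ± 0.21, adjusted p = 6.17e-13). Ldhb, the lactate dehydrogenase chain of oxidative tissue, was lower at 0.0992, 0.0434 and 0.172 CPM in irradiated KPC cells, against 14.7, 13.9 and 14.4 CPM in irradiated MB49 cells (-7.10 ± 0.33, adjusted p = 2.93e-11), while Ldha, the chain of glycolytic tissue, was higher (1.41, adjusted p = 3.27e-08). The glucose transporter gene Slc2a1 was lower (318 ± 22.4 CPM in irradiated KPC cells and 987 ± 125 CPM in irradiated MB49 cells, -1.63 ± 0.13, adjusted p = 4.04e-09). Among 41 antioxidant and iron genes 18 were higher and 17 lower. Me1, the cytosolic malic enzyme gene that yields NADPH, had 148, 162 and 147 CPM in irradiated KPC cells, against 0, 0 and 0 CPM in irradiated MB49 cells, at least 3030-fold higher. Hmox1, which breaks down heme, had 1683, 1638 and 1714 CPM in irradiated KPC cells, against 208, 200.4 and 161 CPM in irradiated MB49 cells (3.15 ± 0.13, adjusted p = 1.31e-12). The glutathione transferase genes Gsta1 and Gstt1 were lower (-5.64 and -4.39, adjusted p = 2.34e-13 and 5.35e-14).

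Of 32 genes of cholesterol synthesis and uptake 13 were higher and 14 lower. The synthesis genes Hsd17b7 and Sqle were higher in irradiated KPC cells (2.49 and 1.20, adjusted p = 4.67e-10 and 2.29e-08), while the synthesis gene Dhcr7 was lower (-1.0, adjusted p = 1.01e-05). The exporter gene Abca1 had 0 counts in KPC and 1542 in MB49 cells, at least 524-fold lower in KPC, and the exporter gene Abcg1 and the sterol receptor gene Nr1h3 were also lower (-6.26 and -3.94, adjusted p = 2.17e-10 and 6.44e-09). Lysosomal genes went both ways, 13 higher and 14 lower of 45. The protease gene Ctsz had 302, 289 and 309.6 CPM in irradiated KPC cells, against 0.288, 0.772 and 0.560 CPM in irradiated MB49 cells (9.07 ± 0.48, adjusted p = 8.35e-09). The cholesterol carrier gene Npc2 had 2595, 2542 and 2555 CPM in irradiated KPC cells, against 470.1, 523 and 465 CPM in irradiated MB49 cells (2.40 ± 0.13, adjusted p = 5.19e-11). The protease gene Ctsl had 432, 445 and 410.1 CPM in irradiated KPC cells, against 3384, 3585 and 3596 CPM in irradiated MB49 cells (-3.04 ± 0.12, adjusted p = 6.26e-13). Of 39 genes of vesicle and exosome formation 9 were higher and 14 lower, among them Hgs, of the sorting complex ESCRT-0 (1.43), and Rab27b, a GTPase of exosome release (-1.43), with adjusted p = 1.07e-07 and 7.91e-06. Of 35 genes that respond to unfolded protein or stress on translation 12 were higher and 15 lower. Atf3, a stress transcription factor gene, had 18.4, 15.7 and 18 CPM in irradiated KPC cells, against 0.115, 0.0964 and 0 CPM in irradiated MB49 cells (7.90 ± 0.30, adjusted p = 2.24e-13). The cystine transporter gene Slc7a11 had 34.2, 35.5 and 34.2 CPM in irradiated KPC cells, against 116, 108 and 114 CPM in irradiated MB49 cells (-1.70 ± 0.14, adjusted p = 1.2e-08).

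Cell death genes were evenly divided, 14 higher and 14 lower of 37, but single effectors were near the floor in 1 irradiated line. Ripk3, the kinase of necroptosis, had 835 counts in KPC and 1 in MB49 cells. Gsdme, a pore-forming gasdermin gene, was lower in KPC at 0.149, 0.477 and 0.114 CPM in irradiated KPC cells, against 15.7, 19 and 17.5 CPM in irradiated MB49 cells (-6.03 ± 0.35, adjusted p = 7.26e-11). The inflammasome gene Nlrp3 had 3 counts in KPC and 786 in MB49 cells. Bik, a BH3-only gene, differed by -4.25 (adjusted p = 1.36e-09). Of 27 immediate early genes 12 were higher and 6 lower, with Ccn1, a matricellular gene, at 459, 434 and 489.8 CPM in irradiated KPC cells, against 90.4, 82.7 and 65.1 CPM in irradiated MB49 cells (2.54 ± 0.13, adjusted p = 1.97e-11). The transcription factor gene Srf was higher by 1.45 and Egr2 lower (-2.81), with adjusted p = 2.31e-07 and 4.46e-09.

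The line differences after 8 Gy were set beside those of the controls, which share no library with them. Of the 9245 genes called after 8 Gy, 5799 (62.7%) were called in the same direction in the controls, 975 (10.5%) in the opposite direction and 2471 (26.7%) were not called there. The controls had 9672 calls, 67.3% of the genes tested. Without MB49 control replicate 3 the same counts were 5908 (60.8%), 1168 (12%) and 2634 (27.1%) of 9710. Of the 2691 genes past 4-fold after 8 Gy (18.7%), 1943 were past 4-fold the same way in the controls, 72.2% of the 8 Gy calls and 69.1% of the 2812 control calls, and 30 the opposite way. The test of the difference itself called 6162 genes (42.9%), 3002 upward and 3160 downward. Without KPC control replicate 1 it called 3365 upward and 2517 downward, so the balance of directions depends on that library.

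**Figure D5:**
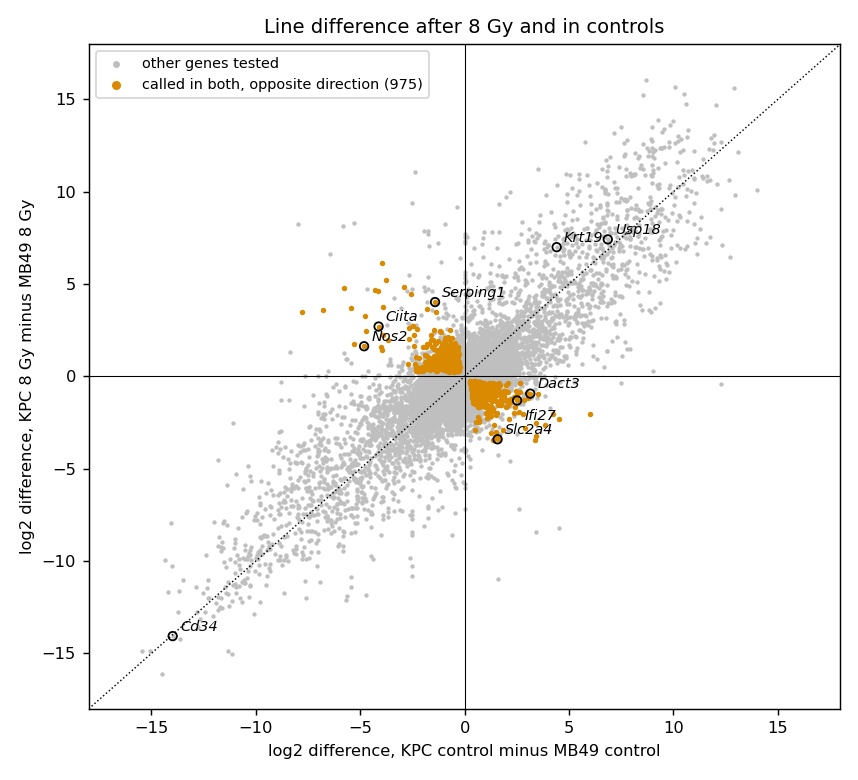
Log2 difference KPC over MB49 of every gene tested, after 8 Gy (vertical) against controls (horizontal), where the dotted line marks equal differences. Orange points are the 975 genes called in both with opposite directions. Cd34, Krt19 and Usp18 lie on the same side in both conditions, while Nos2, Ciita and Serping1 lie in the upper left and Slc2a4, Dact3 and Ifi27 in the lower right. Genes with 0 counts in a group, such as Ciita in KPC controls, are placed by fitted values that depend on the prior count.

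Genes that changed sides included effectors of the immune response. Nos2, the inducible nitric oxide synthase gene, had 7189.8, 6482 and 7743 CPM in irradiated KPC cells, against 2712, 2455 and 1740.1 CPM in irradiated MB49 cells (1.63 ± 0.18, adjusted p = 3.33e-07). Levels were 3.14 ± 0.753 CPM in untreated KPC cells and 88.2 ± 12.6 CPM in untreated MB49 cells (-4.81 ± 0.21, adjusted p = 2.07e-12), a change in the difference of 6.45 ± 0.28, adjusted p = 4.9e-11. Serping1, which encodes the C1 inhibitor of complement, had 40.3 ± 2.33 CPM in irradiated KPC cells and 2.46 ± 0.350 CPM in irradiated MB49 cells (4.02 ± 0.19, adjusted p = 4.09e-12). Serping1 was at 0.148 ± 0.0894 CPM in untreated KPC cells and 0.405 ± 0.102 CPM in untreated MB49 cells (-1.42 ± 0.40, adjusted p = 0.00441). Car9, the hypoxia-linked carbonic anhydrase gene, had 90.1 ± 9.0 CPM in irradiated KPC cells and 30.4 ± 4.69 CPM in irradiated MB49 cells (1.57 ± 0.14, adjusted p = 2.3e-08). Car9 was at 1.19 ± 0.181 CPM in untreated KPC cells and 19.1 ± 1.68 CPM in untreated MB49 cells (-4.0 ± 0.18, adjusted p = 1.98e-12). Mpeg1, the perforin-2 gene, had 113, 111 and 94.5 CPM in irradiated KPC cells, against 17.7, 17.4 and 22.2 CPM in irradiated MB49 cells, while controls held 1 count in KPC and 38 in MB49 cells. Acod1, which makes the metabolite itaconate, had 40.6, 42 and 39.2 CPM in irradiated KPC cells, against 3.34, 3.62 and 2.75 CPM in irradiated MB49 cells, while controls held 3 counts in KPC and 12 in MB49 cells. Ciita, given above, had 0 counts in KPC and 7 in MB49 controls. All 6 genes were called higher in KPC after 8 Gy and lower in KPC in the controls, also without MB49 control replicate 3. For the last 3 the control side rests on few counts. Serping1 was low in the controls too, and its adjusted p there was 0.0304 without MB49 control replicate 3.

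Other genes changed sides toward MB49. Slc2a4, the insulin-responsive glucose transporter gene, had 3.27, 3.38 and 3.66 CPM in irradiated KPC cells, against 39.1, 37.1 and 33.1 CPM in irradiated MB49 cells (-3.41 ± 0.16, adjusted p = 3.59e-12). Slc2a4 was at 1.77 ± 0.264 CPM in untreated KPC cells and 0.589 ± 0.0564 CPM in untreated MB49 cells (1.58 ± 0.21, adjusted p = 3.13e-06). Ifi27, an interferon-inducible mitochondrial protein gene, had 55.4, 58.1 and 56.5 CPM in irradiated KPC cells, against 128, 147 and 145 CPM in irradiated MB49 cells (-1.31 ± 0.14, adjusted p = 3.43e-07). Ifi27 was at 186 ± 32.1 CPM in untreated KPC cells and 32.6 ± 5.30 CPM in untreated MB49 cells (2.51 ± 0.15, adjusted p = 8e-11). Vdr, the vitamin D receptor gene, had 9.72 ± 1.28 CPM in irradiated KPC cells and 25.2 ± 2.98 CPM in irradiated MB49 cells (-1.38 ± 0.15, adjusted p = 2.49e-07). Vdr was at 39.4 ± 5.07 CPM in untreated KPC cells and 8.35 ± 0.589 CPM in untreated MB49 cells (2.23 ± 0.15, adjusted p = 3.6e-10). Dact3, an inhibitor of Wnt signalling, Tbc1d8, a gene with a RAB GTPase-activating domain, and Fgfbp3, a carrier of FGF, made up the rest named by the rule, with differences of -0.93, -0.98 and -0.83 after 8 Gy and of 3.14, 2.53 and 2.66 in the controls. Among all genes with 20 CPM or more in some group and a gene name, 703 changed sides with all 3 tests called, 392 toward KPC and 311 toward MB49 after 8 Gy.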

How the data were processed

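RNA was measured by sequencing of mRNA in 12 libraries of cultured cells, 3 for each of irradiated KPC, irradiated MB49, untreated KPC and untreated MB49 cells. Per the labels, the libraries were made with an Illumina stranded mRNA kit. Per the submitters' processing notes, fastp, HISAT2, StringTie and GRCm39 were used. Versions, the counting tool and its strand setting are not given in the sources used here, so antisense and overlapping genes cannot be told apart. The deposited values are estimated counts per gene from the authors, not normalized, and were rounded to whole numbers. Of 57180 rows 525 carried no gene symbol and held 0.184 to 0.449% of the counts; the 53 of them that passed the filter stayed in the fit.

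Genes with enough counts by edgeR's filterByExpr were kept, 14362, and 42818 were left out. A single model over all 12 libraries (edgeR 4.0.16 and limma 3.58.1 in R 4.3.3, trimmed-mean scaling, quasi-likelihood test, 8 residual degrees of freedom, biological coefficient of variation 0.15) gave the KPC minus MB49 difference after 8 Gy, that in controls, and the difference between them. Benjamini-Hochberg adjustment ran over all genes at 0.05. The fit was also run on simulated data in which 200 genes differed, in irradiated KPC libraries alone. With 64.4% of genes called in the real data, that run cannot check the scaling between these lines. DESeq2 1.42.0, other scalings, filters, a replicate block and leaving out each library were alternatives; list counts, overlaps and single-line counts without MB49 control replicate 3 were chosen after seeing the data.

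The comparison and the gene lists were chosen with earlier results of these data known. Named genes were general markers and, for each list, up to 3 called genes of largest difference in each direction at 5 CPM or more with no overlap, together with the largest over all genes at 20 CPM. Krt8, Sox9, Pdx1, Fn1, Epcam, Xist, Irf1, Irf9, Isg15, Tap1, Ptgs2, Ccnb1, Ifih1, Ifnb1, Ifngr1, Ptprc, Pecam1, Cdh5, Upk1b, Upk2, Upk3a, Trim21, C3, Dcn, Ddx3y, F11r, Ldha, Ifit3, Il36a, Cxcl11, Cxcl1, Cxcl2, Cxcl3, Dhcr7 and the further Hox and claudin genes were chosen after their values were seen. Close copies (H2-Q, Serpina3, Ifit3 and Ifit3b, Prl2c) may share reads. Promoters came from RefSeq on GRCm38.p6, while the counts rest on GRCm39, so no coordinates were carried between builds. Results for some genes are not reported here.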

Additional observations from a re-analysis of the deposited data

Results flagged for a closer look

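The KPC minus MB49 difference was not the same after 8 Gy as in controls for 6162 genes by the test of that difference in edgeR, 3002 shifted toward KPC and 3160 toward MB49. Values below are the log2 shift of the difference, 8 Gy minus control, and every call is by the same test.

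Genes that shifted toward KPC included effectors of inflammation and matrix. The shift was 6.45 for Nos2, 5.57 for Car9, 5.44 for Serping1 and 7.42 for the complement gene Cfb. For Cfb it was 6.84 without MB49 control replicate 3. Ly6c1, a surface protein gene of myeloid and endothelial cells, shifted by 7.14, with 17052 and 40260 counts in irradiated KPC and MB49 cells and 72 and 25556 in their controls. Acta2 shifted by 9.84, but by 5.57 without MB49 control replicate 3, which held 15 CPM of it against 0.327 and 0.183 CPM in the other MB49 controls. Where a group held 3 counts or fewer no size is given. Those called were Mpeg1 (adjusted p = 1.4e-07), Ciita (adjusted p = 3.85e-05), Acod1 (adjusted p = 3.73e-05), the matrix genes Ccn2 (adjusted p = 5.59e-10) and Tnc (adjusted p = 0.00115), the chemokine gene Ccl7 (adjusted p = 2.26e-05) and the interleukin receptor gene Il13ra1 (adjusted p = 0.0226). The Il13ra1 call was lost without MB49 control replicate 3.

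Genes that shifted toward MB49 included Igfbp4 (-5.19), the neurotrophin receptor gene Ngfr (-6.15), the cadherin Celsr2 (-5.38), Slc2a4 (-4.99), Dact3 (-4.08), Ifi27 (-3.82), Vdr (-3.61), Tbc1d8 (-3.51) and Fgfbp3 (-3.49). Dact3 shifted by -4.44 and Fgfbp3 by -3.81 without MB49 control replicate 3. Igfbp4 had 1017 and 40451 counts in irradiated KPC and MB49 cells and 21242 and 24462 in their controls. Also called, with a group at 3 counts or fewer, were Zbp1, a sensor of Z-form nucleic acid (adjusted p = 2.75e-05), the prolactin family gene Prl2c2 (adjusted p = 2.37e-05), the pentraxin gene Nptx1 (adjusted p = 0.000474), Susd2 (adjusted p = 0.00379) and Rufy4 (adjusted p = 0.0339). Zbp1 had 27529 and 2394 counts in irradiated KPC and MB49 cells and 199 and 0 in their controls.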

How the results depend on the processing

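Across alternatives the genes higher in irradiated KPC cells numbered 3910 (library totals as scaling) to 5073 (no filter) and the lower ones 4469 to 5513. Without 1 library at a time they numbered 4139 to 4930 and 4349 to 5061, in controls 4330 to 4902 and 4592 to 5141, and for the change 2667 to 3365 and 2517 to 3460. Library totals moved the median over all genes to -0.217, against -0.089, and the share of calls that were higher to 41.5%, against 48.2%. Genes of a single irradiated line, 179 for KPC and 133 for MB49, numbered 98 and 58 at 20 CPM against 0.25 CPM, 331 and 243 at 5 CPM against 1 CPM, and 181 to 190 and 134 to 139 without 1 library. Fitting the replicate number as a block gave 4255 higher and 4556 lower. Same-numbered libraries did not deviate together (correlations of 0.0875, -0.349 and -0.384), so the numbers do not show pairing. Of 4252 recomputed differences of named genes 4179 kept their side of the threshold, 61 lost it and 12 gained it, with 19 of 304 genes involved. Of those with a call in either fit 0 changed direction, and changes of direction without a call were not counted. Lists with a median near 0 (acute phase, antioxidant, cell death, cholesterol, growth factor, lysosomal, senescence and unfolded protein genes) changed sign with scaling, so no direction is given for them. Sequencing depth limits genes at a few counts: no fitted ratio is given where an irradiated group held 3 counts or fewer, and ratios of genes with few more in a group, such as Cdh1, Cd24a, Atf3 and Cd34, are imprecise in size.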
